A study of Mus musculus with 2 samples.

Results

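The AP-1 and EGR immediate early factors are 10 transcription factor genes, *Fos*, *Fosb*, *Fosl1*, *Fosl2*, *Jun*, *Junb*, *Jund*, *Egr1*, *Egr2* and *Egr3*, picked by symbol from the 22156 genes of an RNA sequencing table of mouse primary chondrocytes. All 10 were found, and 8 had the 10 counts over both libraries that were needed for a test. The question behind the experiment was how loss of *Myl3*, which encodes a myosin light chain, changes gene expression in cartilage cells. The design had 1 library of cells from control mice and 1 library of cells from *Myl3*-KO mice, so no difference below has a replicate check and no test between the genotypes exists. In *Myl3*-KO mice a Cre recombinase driven by the *Col2a1* promoter, which is active in cells of the cartilage lineage, removes the floxed *Myl3* gene. The methods of the study describe the controls as *Myl3* flox/flox littermates of the *Col2a1-Cre; Myl3* flox/flox animals, with both on a C57BL/6J background, whereas the sample labels call the controls WT. Cells of both groups came from rib cartilage per the labels, while the methods name rib and articular cartilage of newborn mice, and they were kept as a monolayer in medium with fetal bovine serum and no further treatment. How many animals were pooled for each library is not given in the sources used here.

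The factors of the Fos and Jun families are basic leucine zipper proteins that pair with each other to form AP-1, the complex that binds the sequence TGAGTCA. Jun proteins can pair among themselves, whereas Fos proteins need a Jun partner. The EGR factors are zinc finger proteins that bind GC-rich sites such as GCGTGGGCG or GCGGGGGCG. Many of these genes are immediate early genes: serum, growth factors and stress switch them on within minutes through MAP kinases, SRF and its ELK partners, without new protein synthesis. In cartilage, AP-1 is known for the control of matrix proteases, and *Fosl2* and *Junb* for roles in skeletal growth.

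The promoters of *Fos* and *Junb* are shown because both are textbook immediate early genes, yet they lay far apart in level in these cultures, with *Fos* close to the counting floor and *Junb* among the most abundant members. The 150 bases before each start site are given 5′ to 3′ from the RefSeq promoter table of GRCm38.p6, from chr12:85473740-85473889 on the plus strand for *Fos* and from chr8:84978749-84978898 on the minus strand for *Junb*. Capitals mark TGACG, the core of the cAMP response element TGACGTCA, and the TATA box sequence TATAAA.
Fos: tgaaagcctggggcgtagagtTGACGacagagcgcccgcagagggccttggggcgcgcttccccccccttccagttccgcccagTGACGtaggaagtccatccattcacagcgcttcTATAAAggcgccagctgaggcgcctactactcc
Junb: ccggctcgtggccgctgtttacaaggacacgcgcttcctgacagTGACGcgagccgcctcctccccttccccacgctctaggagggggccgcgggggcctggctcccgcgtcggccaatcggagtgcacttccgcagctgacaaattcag

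Windows of 7 of the 10 members were searched, over 250 bases before the start on both strands. *Fosl1*, *Egr1* and *Egr3* were not searched. Any member with a window on chromosome 18, where *Egr1* lies, was left out of the search. *Fos* held TGACG at positions -129 and -66 and TATAAA at -33, counted from the start site. *Junb* held TGACG at -106, and *Fosb* held it at -60 with GCGGGGGCG at -50. *Fosl2* held GCGGGGGCG at -79. The CArG box, the binding sequence of SRF, was found before *Egr2* in 4 of its 5 annotated windows, of which 3 also held TGACG. The starts of these 3, at 67537869, 67537870 and 67537930, lie close together. Their windows overlap and share the same matches, which are not separate sites. The letters of TGAGTCA, TGACGTCA and GCGTGGGCG were in none of the windows of the 7 members searched. Sites more than 250 bases before a start were not searched for any member. The RefSeq starts used for *Jund* (70697739) and *Fosl2* (32136472) lie apart from the starts of their gene loci given below (70698949 and 32135801). Any match to TGACGTCA also counts as a match to TGACG. Of 32851 promoter windows of the same length, 17.8% held TGACG, 12.4% TATAAA, 4.46% TGAGTCA, 1.55% TGACGTCA, 2.57% GCGGGGGCG, 0.536% GCGTGGGCG and 1.47% the CArG box. These matches describe letters in a window and are no evidence of binding.

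The control library held 17612435 expected counts and the *Myl3*-KO library 13477977. Expected counts are the authors' estimates of reads per gene, and those of all 10 members were whole numbers. CPM is a gene's count scaled to the total of its library, and 3 counts, taken as the floor, were 0.170 CPM in control cells and 0.223 CPM in *Myl3*-KO. FPKM, which the authors also deposited, scales by transcript length too and was used where levels of different members are set side by side. Sums over cell type markers and the ranking of genes within the other lists used CPM, which does not scale by length. A two-sided exact binomial test set the rounded counts of a gene against the share of the library totals, for all 12431 genes that reached 10 counts in sum, and the p-values were adjusted by Benjamini-Hochberg over all of them. A gene was called where the adjusted p was under 0.05 and the ratio at least 2-fold. The reads of the libraries are compared in this way, not the genotypes, and the 95% intervals cover counting error only. *Myl3* had 0 counts in both libraries, so the deleted gene gave no check of the labels.

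Several defining markers of the labelled cell type were absent. Of 9 chondrocyte markers, *Acan*, *Matn1*, *Matn3* and *Hapln1* were at 0 counts in both libraries, *Col2a1* had 30 and 27 counts, and *Sox9*, the master factor of the lineage, had 866 and 480. The markers summed to 57.8 CPM in control cells and 45.2 CPM in *Myl3*-KO, against 14783.8 and 16896.7 CPM for 6 fibroblast markers, most of it from the collagen genes *Col1a2*, *Col3a1* and *Col1a1*. *Dcn*, which encodes decorin, fell from 631 to 155 counts and was the only marker called (log2 ratio -1.64, 95% interval -1.90 to -1.38), while *Thy1* was at 0 in both. The 6 muscle markers were at or under 5 counts each, with 4 at 0 in both libraries, and summed to 0.341 and 0.223 CPM. Immune markers summed to 2.05 and 2.15 CPM with *Adgre1* and *Cd3e* at 0, endothelial markers to 0.397 and 0.890 CPM with *Cdh5* and *Emcn* at 0, and erythroid markers to 0 and 0.0742 CPM.

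Across the members, *Fosl2* and the Jun family made up most of the AP-1 RNA by FPKM, *Fos* and *Fosb* were close to the floor, and *Egr1* was the member called, higher in the *Myl3*-KO library by 2.14-fold. Of the 8 members tested, 1 was called higher and 0 lower. Over all genes tested, 1.15% were called higher and 0.394% lower. At the adjusted p alone, with no limit on the ratio, 18.6% of all genes tested were higher and 16.8% lower, and among the members *Egr1* was again the single one past it, while the adjusted p of the other 7 lay between 0.338 and 1. The median log2 ratio of the tested members was -0.01, beside 0.02 over all genes tested.

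**Figure D1:**
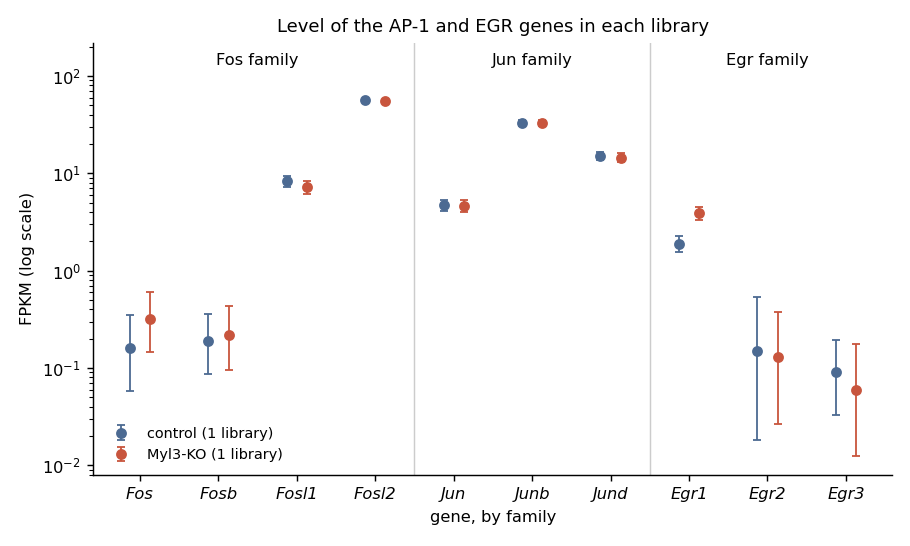
FPKM (log scale) of each member in the control library (blue) and the *Myl3*-KO library (red), with bars for the 95% counting interval. *Fosl2* sits highest at 56.39 and 55.08, *Fos*, *Fosb*, *Egr2* and *Egr3* sit at 0.32 or below with wide bars, and *Egr1* is the gene whose bars do not overlap between the libraries.

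Among the Fos family, *Fosl2*, which encodes Fra-2, was the dominant gene. It lies on chromosome 5 of GRCm38 from 32135801 to 32157842, and had 6492 counts in control cells and 4853 in *Myl3*-KO, or 368.6 and 360.1 CPM. These levels differed by less than the counting error, with a ratio of 0.977 and a 95% interval of 0.941 to 1.01 (adjusted p = 0.364, exact binomial test). At 56.39 and 55.08 FPKM it exceeded 89.3% of the genes above 0 in the library of control cells and 89.5% in *Myl3*-KO. Its share of the summed FPKM of the Fos family was 86.8% in control cells and 87.7% in *Myl3*-KO.

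*Fosl1*, which encodes Fra-1, another Fos protein that lacks the strong activation domain of FOS, ranked next in the family. It lies on chromosome 19 from 5447547 to 5455946 and had 248 counts in control cells and 166 in *Myl3*-KO, or 8.25 and 7.22 FPKM. The ratio of CPM was 0.875 with an interval of 0.714 to 1.07, so a fall of this size was within counting error (exact binomial adjusted p = 0.338). *Ccdc85b*, a gene on the opposite strand that overlaps the *Fosl1* locus, went from 142 to 74 counts (log2 ratio -0.55, 95% interval -0.98 to -0.14). Whether strand was used in counting is not given in the sources used here, so reads of the overlap cannot be told apart.

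*Fos* and *Fosb*, the family members with the strongest known activation by serum, were barely detected. *Fos*, on chromosome 12 from 85473890 to 85477273, had 6 counts in control cells and 9 in *Myl3*-KO, or 0.341 and 0.668 CPM. Its log2 ratio was 0.97 with an interval of -0.68 to 2.74, which spans a lower and a much higher level alike (adjusted p = 0.348, exact binomial test). Of 935 other genes with between 7.5 and 30 counts, 19.3% had a ratio at least as high. *Fosb*, on chromosome 7 from 19302696 to 19310051, had 9 counts in control cells and 8 in *Myl3*-KO, which gave a log2 ratio of 0.22 with an interval of -1.36 to 1.76. A difference in either gene was not detectable at this depth. In FPKM, *Fosl2* stood 352-fold above *Fos* in control cells and 172-fold in *Myl3*-KO.

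The Jun family was carried by *Junb*, and none of its genes moved beyond counting error. *Junb*, on chromosome 8 from 84974484 to 84978718, encodes a Jun protein that can restrain c-Jun and is needed for proliferation of skeletal cells. It had 1049 and 804 counts, or 59.6 CPM in control cells and 59.7 CPM in *Myl3*-KO. The log2 ratio of 0.0022 turned to -0.02 with TMM factors and with DESeq2 size factors, and its interval of -0.13 to 0.14 covers all of these. *Prdx2*, which overlaps the *Junb* locus on the opposite strand, had 8991 and 6855.99 counts (log2 ratio -0.01). Reads of this overlap cannot be told apart either, as the use of strand in counting is not given.

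*Jund*, a Jun gene known for steady expression in resting cells, had 443 counts in control cells and 325 in *Myl3*-KO, or 15.08 and 14.46 FPKM. It is a gene of a single exon on chromosome 8 from 70698949 to 70700616. The ratio was 0.959 with an interval of 0.828 to 1.11. *Jun*, which encodes c-Jun, the strongest activator of the family, lies on chromosome 4 from 95049034 to 95052222 and is also of a single exon. It had 263 and 199 counts, or 14.9 and 14.8 CPM, a ratio of 0.989 with an interval of 0.818 to 1.19. For both genes the annotation holds an antisense gene over the same locus, *Junos* for *Jun* and *Gm11175* for *Jund*, that has no row in the table.

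By FPKM, *Junb* held 62.5% of the Jun family in control cells and 63.3% in *Myl3*-KO, *Jund* 28.6% and 27.8%, and *Jun* 8.88% and 8.89%. The order of the genes and their shares were thus close in both libraries. Summed over its 3 genes, the Jun family had a log2 ratio of CPM of -0.02 with an interval of -0.12 to 0.09, and the Fos family one of -0.04 with an interval of -0.09 to 0.02. The 7 AP-1 genes together came to 117.67 FPKM in control cells and 114.91 FPKM in *Myl3*-KO.

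**Figure D2:**
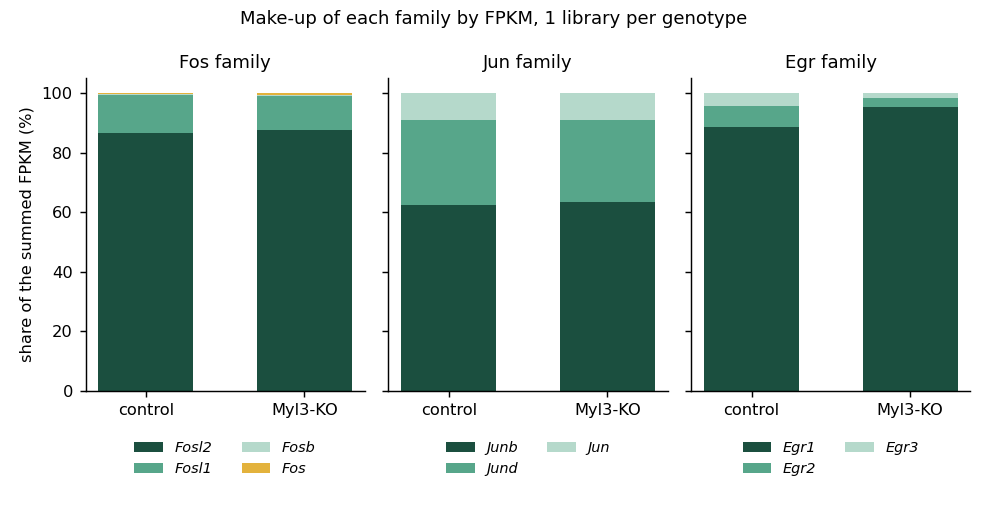
Share of the summed FPKM of the Fos, Jun and Egr families held by each gene, in percent, as stacked bars for the control and the *Myl3*-KO library. *Fosl2* holds 86.8% and 87.7% of the Fos family, *Junb* 62.5% and 63.3% of the Jun family, and *Egr1* 88.7% and 95.3% of the Egr family.

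*Egr1* was the member that differed between the libraries. It encodes a zinc finger factor that responds to growth factors and to mechanical load, and lies on chromosome 18 from 34859823 to 34864984. *Egr1* had 108 counts in control cells and 177 in the smaller *Myl3*-KO library, or 6.13 and 13.1 CPM. This ratio was 2.14-fold with an interval of 1.68 to 2.75, or 1.10 on the log2 scale with an interval of 0.75 to 1.46 (p = 2.25e-10, adjusted p = 3.62e-09, two-sided exact binomial test). The lower end of the interval lies under the 2-fold limit of the call. In FPKM, the level went from 1.88 to 3.88, a ratio of 2.06.

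Among 2179 other genes with between 142.5 and 570 counts, 0.321% had a ratio at least as high as *Egr1*, and the log2 ratios from the 5th to the 95th percentile ran from -0.42 to 0.62. The call was kept with TMM factors (log2 ratio 1.08) and with DESeq2 size factors (1.07). With a spread between replicates assumed in edgeR's exact test, it was kept at a coefficient of variation of 0.1 (adjusted p = 0.0160) and lost at 0.2 and at 0.4, where the adjusted p was 1 and the unadjusted p 0.0154 and 0.205. The spread between replicate cultures of these cells was not measured. In bulk RNA, more cells with *Egr1* RNA and more *Egr1* RNA per cell cannot be told apart. The cell type markers went both ways between the same libraries. Of 3 chondrocyte markers tested, 0 were higher and 1, *Sox9* (log2 ratio -0.47), was lower at the adjusted p alone, and *Col2a1* stood at 0.23. Of 5 fibroblast markers tested, 3 were higher, *Pdgfra* (0.61), *Col1a2* (0.22) and *Col1a1* (0.15), and 1, *Dcn* (-1.64), was lower. The part of these markers in the result for *Egr1* was not tested.

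The other EGR genes were at the limit of detection. *Egr2*, a factor known for the myelinating glia and for lymphocytes, had 2 counts in control cells and 3 in *Myl3*-KO. Both are at or under the floor, so no fold is given. It is on chromosome 10 from 67535475 to 67542188. *Egr3*, on chromosome 14 from 70077203 to 70082614, had 6 and 3 counts, or 0.341 and 0.223 CPM, a log2 ratio of -0.61 with an interval of -3.24 to 1.61. Neither reached the 10 counts needed for the test. *Egr1* held 88.7% of the summed FPKM of the family in control cells and 95.3% in *Myl3*-KO, and the family sum went from 2.12 to 4.07 FPKM.

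**Figure D3:**
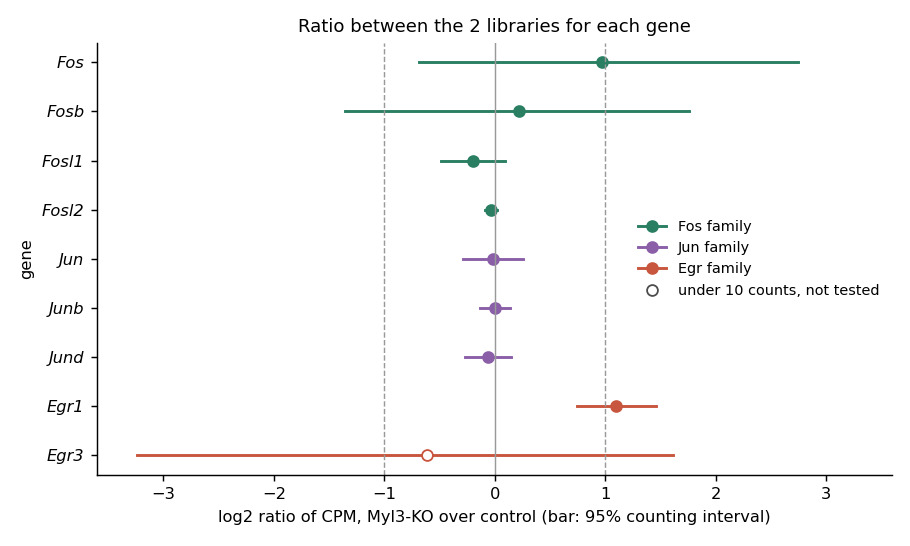
Log2 ratio of CPM of *Myl3*-KO over control for 9 members, with bars for the 95% counting interval and dashed lines at 2-fold; open circles were not tested and *Egr2*, at or under 3 counts in both libraries, is left out. *Egr1* lies at 1.10 (0.75 to 1.46), the bars of *Fos*, *Fosb* and *Egr3* span 0 widely, and *Fosl2* lies at -0.03 with the shortest bar.

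The order of the members by FPKM was the same in both libraries for the 6 upper places, from *Fosl2* over *Junb*, *Jund*, *Fosl1* and *Jun* to *Egr1*. In the control, each of these neighbours was separated by its counting intervals, and *Jun* at 4.68 FPKM stood 2.49-fold above *Egr1* at 1.88. In *Myl3*-KO the intervals of *Jun* at 4.63 FPKM and *Egr1* at 3.88 overlapped, so these neighbours were not distinct there. Below *Egr1* came *Fosb*, *Fos*, *Egr2* and *Egr3* in control cells and *Fos*, *Fosb*, *Egr2* and *Egr3* in *Myl3*-KO, and within this group all neighbours overlapped. *Egr1* exceeded 30.3% of the genes above 0 in control cells and 36.3% in *Myl3*-KO, and *Fos* 14.0% and 16.6%. The FPKM of *Egr2* went from 0.15 to 0.13 while its counts went from 2 to 3, and the FPKM and counts together imply a transcript length of 0.757 kb in the control and 1.71 kb in *Myl3*-KO.

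**Figure D4:**
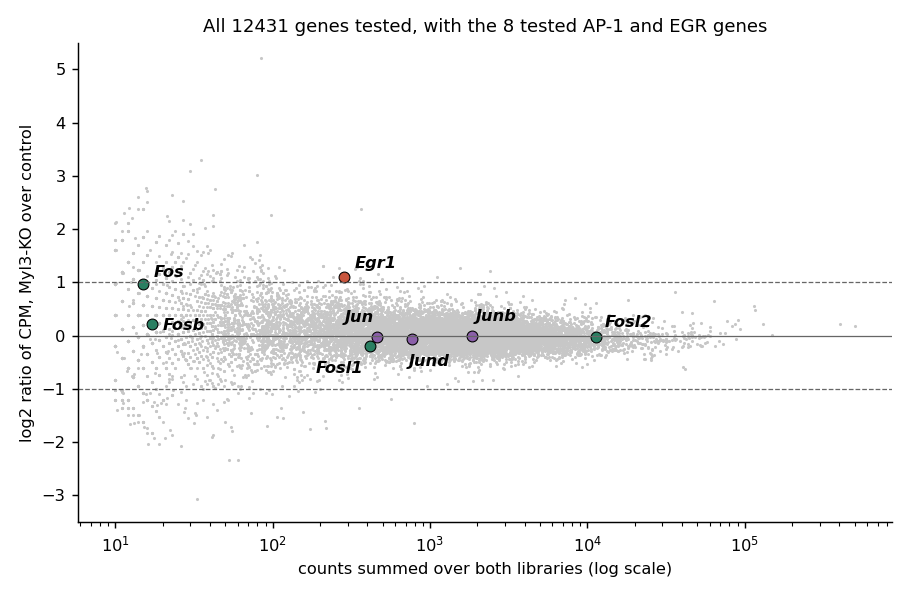
Log2 ratio of CPM of *Myl3*-KO over control against the counts summed over both libraries (log scale) for all 12431 genes tested (grey), with the 8 tested members in green (Fos family), purple (Jun family) and red (Egr family). *Egr1* lies at the upper edge of genes with a like number of counts, and *Fos* and *Fosb* lie where few counts spread all ratios widely.

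None of the partners of these factors was called. Of 16 genes that encode AP-1 partners outside the Fos and Jun families, 12 were tested and 0 were called. At the adjusted p alone 4 were higher and 1 lower. Over all genes tested, 1.15% were called higher and 0.394% lower, and 18.6% and 16.8% passed the adjusted p alone in these directions. The median log2 ratio of the partners was 0.10. *Atf4*, a factor of the amino acid stress response, went from 4495 to 2883 counts (log2 ratio -0.25), *Nfe2l1* had a log2 ratio of 0.15 and *Mafg* one of 0.21. A list of other EGR family genes and co-repressors held 4 genes, of which 2 were tested and 0 called. The EGR co-repressors *Nab1* and *Nab2*, themselves known targets of EGR factors, had log2 ratios of 0.08 (95% interval -0.05 to 0.21) and 0.15 (-0.16 to 0.46), with neither past the adjusted p.

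Upstream of the members, 6 of 7 genes for SRF and its cofactors were tested, and 0 were called. At the adjusted p alone 4 were higher and 0 lower, among them *Elk3* (log2 ratio 0.17), *Mkl1* (0.21) and *Mkl2* (0.17), of which the last pair encode the actin-regulated cofactors of SRF. The median was 0.17. All 22 genes of the MAP kinase cascades were tested, with 0 called, 5 higher and 4 lower at the adjusted p alone and a median of -0.04. For both lists, the shares over all genes tested were 1.15% called higher and 0.394% called lower. At the adjusted p alone they were 18.6% and 16.8%. *Nras*, which encodes a RAS protein at the head of these cascades, did not pass at a log2 ratio of 0.07, which turned to -0.10 on the ratio of FPKM values.

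Of 38 other immediate early genes, which share their inducers with the members, 37 were tested and 0 were called. That count stands beside 1.15% called higher and 0.394% called lower over all genes tested. The log2 ratios of these immediate early genes ran from -0.39 to 0.63 with a median of 0.07. At the adjusted p alone 8 were higher and 3 lower, beside 18.6% and 16.8% of all genes tested. *Myc* was lower at -0.31 (4032 to 2492 counts), while *Klf6* at 0.16 and *Cyr61*, a target of SRF and YAP, at 0.22 were higher. Heat shock genes, which along with *Fos* and *Jun* are known to rise when tissue is taken apart into cells, had a median of -0.10 over 10 genes tested, with 0 called, 2 higher and 4 lower at the adjusted p alone. *Hsp90aa1* had a log2 ratio of -0.24, *Hspd1* one of -0.36 and *Hsp90ab1* one of 0.18.

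**Figure D5:**
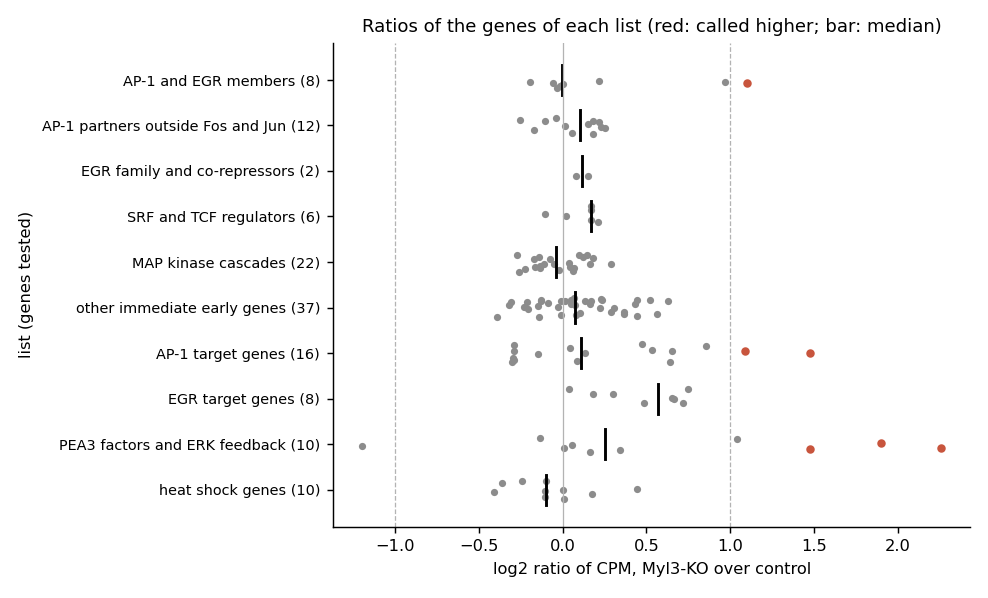
Log2 ratio of CPM of *Myl3*-KO over control for each tested gene of the members and of 9 further lists, with the median of each list as a black bar, genes called higher in red and dashed lines at 2-fold. The members centre on -0.01 with *Egr1* at 1.10, other immediate early genes lie between -0.39 and 0.63, and the 8 tested EGR target genes all lie above 0.

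The known targets of AP-1 went both ways. Of 20 target genes, 16 were tested, 2 were called higher and 0 lower. At the adjusted p alone 5 were higher and 5 lower, with a median of 0.11. Among all genes tested, 1.15% were called higher and 0.394% lower, and 18.6% and 16.8% passed the adjusted p alone. *Ccnd1*, which encodes cyclin D1, rose from 136.14 to 221.72 counts, with a log2 ratio of 1.09 and a 95% interval of 0.78 to 1.41. *Il6*, an inflammatory cytokine gene, went from 8 to 17 counts (log2 ratio 1.47, 95% interval 0.18 to 2.89), with an adjusted p of 0.0437 in the exact binomial test that no longer passed with DESeq2 size factors. Of the most abundant targets, *Gja1* at -0.30 and *Timp1* at -0.29 were lower and *Cd44* stood at 0.04. The matrix protease genes *Mmp3*, with 16 counts in control cells and 10 in *Myl3*-KO, and *Mmp13*, with 2 and 4, were chosen for mention after their values were seen, as classical AP-1 targets in cartilage. Both were too weakly counted to show a difference.

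Of 10 known target genes of EGR factors, 8 were tested, and all 8 had a ratio above 0, beside 52.7% of all genes tested. The list was chosen with earlier results of these data known. It leaves out *Nab1* and *Nab2*, EGR targets kept with the co-repressors, at log2 ratios of 0.08 and 0.15. None of the 8 was called at 2-fold, and 3 were higher and 0 lower at the adjusted p alone. For all genes tested, these shares were 1.15% called higher and 0.394% called lower, with 18.6% and 16.8% at the adjusted p alone. *Tgfb1*, which is also on the list of AP-1 targets, went from 530 to 638 counts, a log2 ratio of 0.65 with an interval of 0.49 to 0.82. *Trp53* had a log2 ratio of 0.30, and *Pdgfa*, chosen after its values were seen, one of 0.48. The median of the list was 0.57, to which the weakly counted genes *Ptges* (7 and 9 counts), *Fgf2* (15.85 and 19.94) and *Pdgfb* (19 and 23), also chosen after their values were seen, contributed with intervals that span 0.

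Genes of the PEA3 factors and of ERK feedback, which like *Egr1* are known to follow ERK activity, held 3 called genes, all weakly counted. Of 11 genes, 10 were tested, and these 3 were called higher and 0 lower, with a median of 0.25. The shares called among all genes tested were 1.15% higher and 0.394% lower. *Etv5* went from 9 to 33 counts (log2 ratio 2.26, 95% interval 1.17 to 3.51) and *Etv4* from 7 to 20 (1.90, 95% interval 0.60 to 3.39). *Dusp6*, which encodes an ERK phosphatase, had the same counts as *Il6*, 8 and 17, and like it was no longer called with DESeq2 size factors. With a coefficient of variation of 0.1 in edgeR's exact test, *Il6*, *Etv4* and *Dusp6* were not called, and with 0.2 *Ccnd1* and *Etv5* were lost as well. The better counted genes of this list, *Spred1* at 0.05, *Spred2* at 0.17 and *Dusp5* at 0.34, did not pass the adjusted p. Of the 10 tested, 8 had a ratio above 0, beside 52.7% of all genes tested, and 2 had one below. The latter, chosen after their values were seen, were *Spry1* (96 and 67 counts, log2 ratio -0.13) and *Dusp4* (9 and 2 counts, -1.20). Neither passed the adjusted p.

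The annotation columns of the table added a shared label to the members. All 7 AP-1 genes carry the KEGG pathway osteoclast differentiation, which 122 genes of the table carry, and 5 of them carry IL-17 signaling, which 90 genes carry.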

How the data were processed

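RNA of 1 control and 1 *Myl3*-KO culture was sequenced after enrichment of mRNA, with a SMARTER library kit per the labels. For every gene, the authors deposited an unscaled expected count (an estimate of its reads) and an FPKM value, scaled by length and library. Per the submitters' processing notes the genome was GRCm38 (mm10), while the aligner, counter and annotation are not given in the sources used here. The column headed NC was taken as the control, since the other is headed KO. Library totals were 17612435 and 13477977 expected counts.

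Log2 ratios are of CPM, with counts under 3 raised to 3. Intervals are 95% Clopper-Pearson intervals and cover counting error only. The two-sided exact binomial test on rounded counts covered 12431 genes and left out 9725 with fewer than 10 counts. The quasi-likelihood test of edgeR was not run, as single libraries leave no residual degrees of freedom. The binomial test and its intervals were checked on simulated counts that held counting error only. That check had no spread between replicates, so it cannot show how the calls fare under such spread. Alternatives were TMM factors and edgeR's exact test with preset coefficients of variation (edgeR 4.0.16), size factors (DESeq2 1.42.0), other filters and limits, 1 count added, the ratio of FPKM values, and shares of counts in place of FPKM. Python 3.11.15, numpy 2.4.6, pandas 2.3.3, scipy 1.17.1, matplotlib 3.10.9 and R 4.3.3 were used.

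Loci are those of GENCODE M21 on GRCm38, and promoter windows those of RefSeq on GRCm38.p6. The members and lists were chosen with earlier results of these data known. Named are all members, *Myl3*, the cell type markers and, of each other list, the called genes and the 3 tested genes with the highest mean CPM; overlapping genes and those the text marks as picked once their values were known fall outside this rule. Some genes that the rule names are not reported here.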

Additional observations from a re-analysis of the deposited data

How the results depend on the processing

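The number of members called higher, 1, fell to 0 at a limit of 4-fold and under edgeR's exact test with a coefficient of variation of 0.2 or 0.4, and stayed at 1 under every other alternative run; the number called lower was 0 under all of them. Of the other lists of the pathway together, cell type markers left out, 5 genes were called higher. This was 3 with DESeq2 size factors, 3 with no filter on low counts, 1 with at least 10 counts in each library, 9 at 1.5-fold, 1 at 4-fold, 33 with no limit on the ratio, and 2, 0 and 0 with a coefficient of variation of 0.1, 0.2 and 0.4. The number of these pathway genes called lower, 0, became 17 with no limit on the ratio. Over all genes, 143 were called higher and 49 lower, which became 91 and 31 with at least 10 counts in each library, 390 and 115 at 1.5-fold, 31 and 5 at 4-fold, 2307 and 2090 with no limit, and 31 and 14, 3 and 1, and 1 and 0 with the rising coefficients of variation. The log2 ratio of *Junb* changed sign to -0.0157 with TMM factors and -0.0216 with DESeq2 size factors, that of *Nras* to -0.10 with FPKM, and that of *Col3a1* to -0.00637, -0.0123 and -0.0323 with these 3 settings. The FPKM ratio for genes outside the members, and all settings for markers, were chosen after seeing the data. By counts in place of FPKM, *Fosl2* held 96.1% and 96.4% of the Fos family and *Junb* 59.8% and 60.5% of the Jun family. No paired analysis was possible because each genotype has 1 library. Depth limits *Fos*, *Fosb*, *Egr2* and *Egr3*, at 9 counts or fewer in each library.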

Other observations

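Within the other immediate early genes, the highest log2 ratios, chosen after their values were seen, were those of *Klf4* (108 to 128 counts, 0.63, 95% interval 0.25 to 1.01), *Zfp36* (109 to 123 counts, 0.56, interval 0.18 to 0.95) and *Nr4a3* (50 to 55 counts, 0.52, interval -0.06 to 1.11). *Klf4* had the same 108 counts as *Egr1* in the control library. The lowest was *Ptgs2*, which encodes the inducible cyclooxygenase, at -0.39 (190 to 111 counts, interval -0.74 to -0.04).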
